A study of Drosophila melanogaster with 9 samples.

Results

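The expression of 10 Methuselah-like receptor genes was examined in *Drosophila* blood cells, out of 17490 genes measured by RNA sequencing. The genes were *mth*, *mthl1*, *mthl2*, *mthl3*, *mthl4*, *mthl5*, *mthl6*, *mthl8*, *mthl9* and *mthl10*, taken by symbol. The list was chosen by family name with earlier results of these data in view, among them the RPKM of *mthl6* in adult and larval samples, so those levels are given as a description and nothing is read from how many of the 10 genes passed a test. Adult hemocytes (AD) were perfused from adult *w1118* females aged 5 days (4 to 5 days in the methods of the study), larval peripheral hemocytes (PH) were bled from *w1118* larvae of the third instar, and larval lymph glands (LG) were the anterior lobes dissected from *w1118* larvae of the third instar. All groups were of this *white* mutant stock, and the labels name no transgene or treatment. Each group had 3 biological replicates, each pooled from several animals, so a value is a mean over many animals and over all the cell types collected. Stage and way of collection changed together between AD and the larval groups, and their effects cannot be told apart. PH and LG shared the larval stage and differed in tissue and in way of collection, whose effects cannot be told apart either.

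Methuselah-like receptors are G protein-coupled receptors of the secretin class, with a long extracellular part that binds ligand and an intracellular side that signals through heterotrimeric G proteins, in some cases to phospholipase C and calcium. The founding gene, *mth*, is known for the long life and stress resistance of its mutants, and its product binds Stunted, a peptide encoded by *sun*. The product of *mthl10* binds growth-blocking peptides, cytokines that act on hemocyte spreading and on metabolism in *Drosophila*. The product of *mthl1*, also called Mist, receives the Fog signal in the folding embryo, and *mthl5* acts with G proteins in the forming heart.

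The sequence on which the study's own PCR measurement of a family member turned was the primer pair for *mthl6*, the gene whose RPKM differed by the largest fold between PH and LG. It is shown as the study's primer list gives it, all in lower case since no part is singled out, and its position within the gene was not checked.
forward primer: ggattcccggtgttggctta
reverse primer: actttcgctgctgttgggta

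The values were RPKM (read counts divided by exon length and by a library total, here already scaled between samples). Multiplied by exon length they gave back whole reads, 2745573 to 6779942 per sample. The study states more mapped reads per sample than this, and the gap was not examined. Of the recovered reads 43.0 to 61.5% fell on ribosomal RNA genes, with the highest share in PH replicate 3. A gene with no read in a library could still have an RPKM of up to that of 3 reads there, and this limit covers counting error only. All 8 of 8 plasmatocyte markers exceeded 1 RPKM in every sample of all 3 groups. The 4 prohemocyte markers were the blood progenitor genes *Tep4*, *Ance*, *dome* and *shg*. They summed to 95.9 to 108 RPKM in AD, against 171 to 209 in PH and 1097 to 1831 in LG. *Tep4* and *Ance* supplied most of each sum. *dome* and *shg* did not follow it: every AD sample exceeded every PH sample, while AD and LG overlapped. Mean *dome* was 6.36 RPKM for AD, 2.45 for PH and 6.87 for LG. Mean *shg* was 3.32, 0.601 and 2.18 RPKM in the same order. Markers of other tissues also differed. By microscopy of reporter lines, the study found that nearly all cells of adult bleeds expressed *srp*, and saw no fat body cells in larval bleeds. The 5 adult fat body markers summed to 7959 to 12376 RPKM in AD, against 33.5 to 37.0 in PH and 4.80 to 41.3 in LG. In AD the yolk protein genes *Yp1*, *Yp2* and *Yp3* had means of 4214, 3341 and 2265 RPKM and *apolpp* 557, while *Npc2d* had 0, 0 and 0.457. The 5 larval fat body markers summed to 7.19 to 18.4 RPKM in AD, against 1219 to 1853 in PH and 82.9 to 151 in LG. The 5 muscle markers found, of 6, summed to 433 to 477, 24.9 to 47.1 and 197 to 230 RPKM in AD, PH and LG. Among these *Act57B* was highest in LG, with means of 31.2, 19.3 and 114 RPKM in the same order. The 4 ring gland markers, genes of the neighbouring endocrine gland, summed to at most 0.933 RPKM in AD and 2.72 in PH. In LG they reached 158 RPKM in replicate 1, with 1.08 and 0.874 in replicates 2 and 3, so LG replicate 1 stands apart for this tissue.

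A gene was counted as expressed when its RPKM exceeded 1 in all 3 samples of a group. By this count 5 of the 10 genes were expressed in AD, where 38.9% of all genes were, 6 in PH, where 35.9% of all genes were, and 7 in LG, where 35.6% of all genes were. *mth*, *mthl2*, *mthl5* and *mthl10* were expressed in all 3 groups. *mthl1* was also expressed in AD and LG, and *mthl3* and *mthl6* in PH and LG. *mthl4*, *mthl8* and *mthl9* did not reach this level in any group. The plot of RPKM by sample shows the spread behind these counts.

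**Figure D1:**
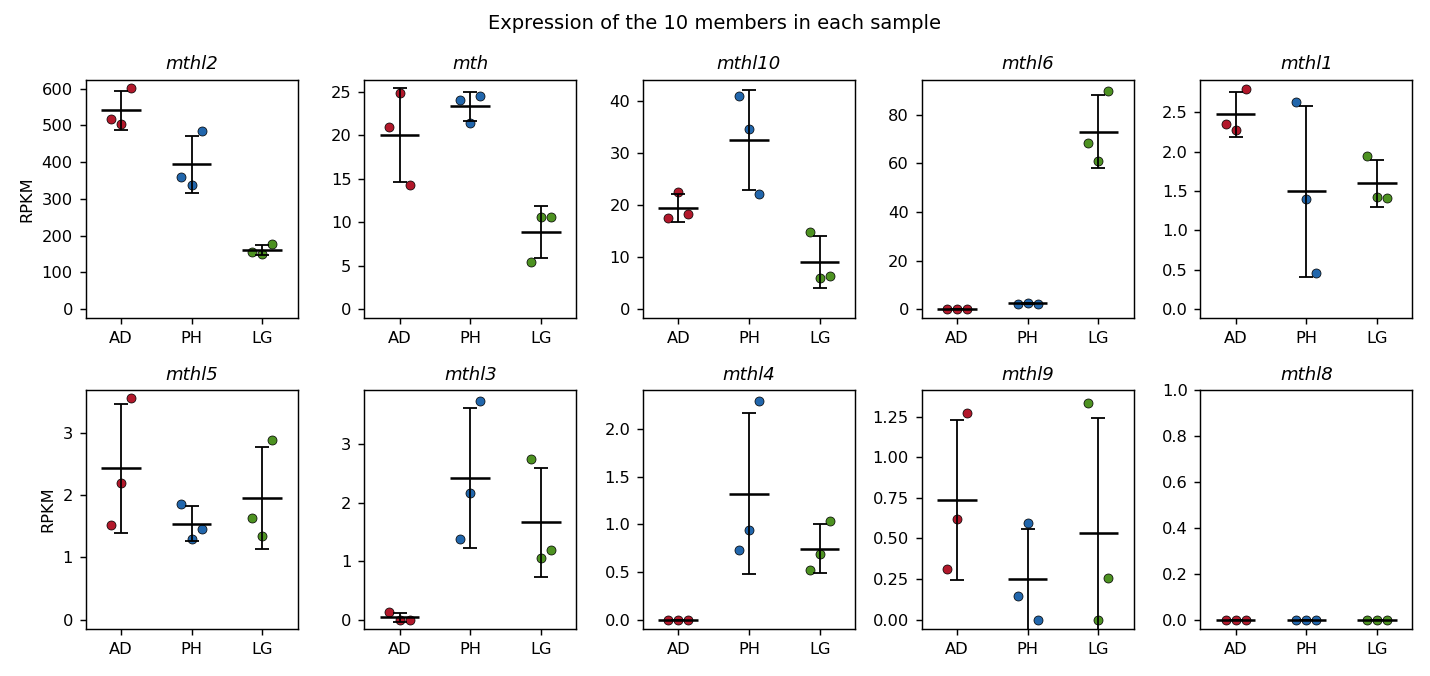
RPKM of the 10 genes in AD (adults), PH (larval bleeds) and LG (lymph glands), with 1 point per sample, a horizontal bar at the mean and an error bar of 1 SD (n = 3), and a separate vertical scale in each panel. *mthl2* was at 150 RPKM or more in all 9 samples, and *mthl6* was at 0 in the 3 AD samples and at 61.1 to 90.0 in the 3 LG samples.

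*mthl2* (FBgn0035623) had the highest RPKM of the 10 genes in every sample. It lies on chromosome 3L at 5604790 to 5607190 on the plus strand (coordinates of all genes are from the Ensembl annotation of BDGP6.54), and 29 bases of its exons overlap *Eaf6* on the minus strand. It had 517, 504 and 602 RPKM in AD, 361, 337 and 484 in PH, and 154, 150 and 178 in LG. The AD samples were all above the PH samples, and the PH samples were all above the LG samples. The means were 541 ± 53.2, 394 ± 78.8 and 161 ± 14.8 RPKM (SD, n = 3 each), which placed *mthl2* at rank 65 of all genes in AD, against 122 in PH and 236 in LG. It rose in AD against LG, by 1.74 on the log2 scale (SE 0.13, adjusted p = 4e-05, limma), and in PH against LG, by 1.27 (SE 0.17, adjusted p = 0.0015). Between AD and PH the estimate was 0.47 (SE 0.15, adjusted p = 0.027), which did not meet the thresholds of 0.01 for the adjusted p and of 1 for the size of the log2 fold change. The PH against LG difference stayed under the fold threshold when values were quantile normalized (0.94) or scaled to total recovered reads (0.89). In these bulk samples, fewer cells that express a gene and less RNA per cell cannot be told apart. The marker sums given above moved with the groups too, and their part in the *mthl2* levels was not tested.

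*mthl6* (FBgn0035789, chromosome 3L, 7485967 to 7487918, plus strand) had no read in AD and the second highest RPKM of the 10 genes in LG. Each of the 3 AD libraries held 0 reads of *mthl6*, which allows up to 0.613 RPKM in the shallowest. PH samples had 2.13, 2.58 and 2.24 RPKM from 59 reads in all. LG samples had 68.4, 61.1 and 90.0 RPKM from 2280 reads in all. The groups did not overlap, and within LG the lowest and the highest library differed far less than LG differed from PH. The mean was 2.32 ± 0.231 RPKM in PH and 73.2 ± 15.0 in LG (SD, n = 3 each), 31.6-fold higher in LG, with a log2 fold change of -4.47 (SE 0.19) in PH against LG. On the same scale the AD estimates were -1.73 (SE 0.21) against PH and -6.19 (SE 0.21) against LG, and depend on the pseudocount of 1 since AD was at 0. *mthl6* passed the filter on low values in AD against PH and AD against LG only through the larval samples.

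Markers that are high in LG were set beside *mthl6*. Summed heart and pericardial cell markers were 0.165 to 0.979 RPKM in AD, against 0.0866 to 1.02 in PH and 15.0 to 29.6 in LG. Of these 5 markers only *Hand*, a transcription factor gene used in heart and lymph gland alike, was above 1 RPKM in all LG samples (26.3, 12.5 and 23.3). *sns*, a nephrocyte and muscle fusion gene, had 2.87, 0.949 and 1.86 RPKM in LG, with means of 0.133 in AD and 0.0439 in PH. *tin*, a heart transcription factor gene, had 0, 1.39 and 0.333 RPKM in LG and 0 in AD and PH, and *prc* and *kirre* had at most 0.363 RPKM in any LG sample. The ring gland markers were near 1 RPKM in LG replicates 2 and 3, in which *mthl6* had 61.1 and 90.0 RPKM. Prohemocyte and posterior signaling center markers were also higher in LG than in PH. Of the 4 posterior signaling center markers, genes of the lymph gland niche, *kn* had 2.13 ± 0.701 RPKM in AD, against 0.162 ± 0.0957 in PH and 7.05 ± 1.4 in LG, and *Antp* had 1.54 ± 0.204, 0.145 ± 0.129 and 3.13 ± 0.218 RPKM in the same order (SD, n = 3 each). *Ser* was highest in AD, at 5.85 ± 0.582 RPKM there, 0.137 ± 0.113 in PH and 2.15 ± 1.79 in LG, and *hh* had group means of at most 0.162 RPKM. The sum of the 4 ranged over 9.31 to 9.64 RPKM in AD, against 0.430 to 0.754 in PH and 11.5 to 13.3 in LG, and *Ser* was its largest part in AD. The part of heart, ring gland, progenitor or niche cells in the *mthl6* level was not tested.

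The make-up of the family differed between the groups, as the plot of shares shows. *mthl2* made up 90.6 to 93.7% of the summed RPKM of the 10 genes in AD, against 83.0 to 89.5% in PH and 61.0 to 64.6% in LG. *mthl6* made up 0% in AD, against 0.415 to 0.642% in PH and 26.3 to 30.9% in LG. The summed RPKM was 586 ± 48.5 in AD, against 459 ± 72.5 in PH and 258 ± 30.1 in LG (SD, n = 3 each). Without *mthl2* the sum was 45.2 ± 6.51 RPKM in AD, against 65.2 ± 8.64 in PH and 97.6 ± 15.8 in LG, of which *mthl6* supplied a mean of 73.2 in LG. Without both genes it was 45.2 ± 6.51 RPKM in AD, against 62.9 ± 8.70 in PH and 24.5 ± 3.67 in LG. Across the 9 samples log2(RPKM + 1) of *mthl2* and *mthl6* had a Pearson r of -0.97 and a Spearman rho of -0.90, given as a description since the samples of a group share their source and each library's values share its scaling.

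**Figure D2:**
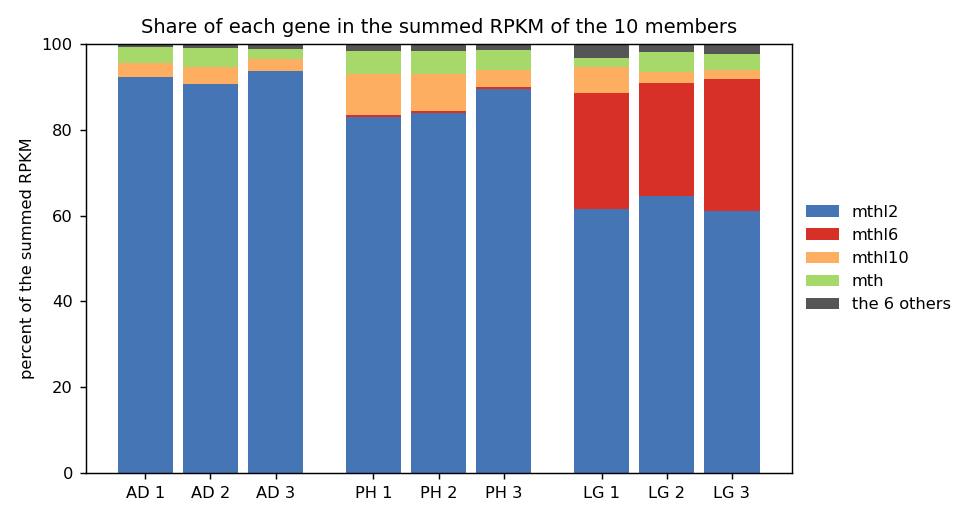
Stacked bars of the percent that each gene made up of the summed RPKM of the 10 genes in each sample of AD, PH and LG. *mthl2* filled 90.6 to 93.7% of the AD bars and 61.0 to 64.6% of the LG bars, where *mthl6* filled 26.3 to 30.9%.

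*mth* and *mthl10* came next in level, and both were lower in LG than in PH. *mth* (FBgn0023000, chromosome 3L, 343378 to 346957, minus strand) had 20.9, 24.9 and 14.2 RPKM in AD, 24.1, 21.4 and 24.5 in PH, and 5.40, 10.6 and 10.6 in LG. All LG samples were below all other samples, while AD and PH overlapped. It rose in PH against LG by 1.35 on the log2 scale (SE 0.26, adjusted p = 0.0059). In AD against LG the estimate was 1.11 (SE 0.30, adjusted p = 0.018), which passed with limma voom on the recovered reads (1.21, adjusted p = 0.0080). In AD against PH it was -0.24 (SE 0.20, 95% interval -0.70 to 0.22, adjusted p = 0.33). The PH against LG call was kept in 2 of the 6 fits that left out 1 sample, with estimates of 1.06 to 1.49, and was lost without PH replicate 1 (1.33), PH replicate 2 (1.41), PH replicate 3 (1.32) or LG replicate 3 (1.49). It was also lost with no filter on low values (adjusted p = 0.015) and when values were scaled to total recovered reads (0.996, adjusted p = 0.027).

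*mthl10* (FBgn0035132, chromosome 3L, 332801 to 342915, minus strand) had 17.6, 22.5 and 18.3 RPKM in AD, 41.0, 34.5 and 22.1 in PH, and 14.8, 6.02 and 6.35 in LG. The 3 LG samples were below all AD and PH samples. PH replicate 3 was the lowest of its group and below the highest AD sample. *mthl10* rose in PH against LG by 1.80 on the log2 scale (SE 0.36, adjusted p = 0.0070), and the estimates were 1.12 (SE 0.32, adjusted p = 0.021) in AD against LG and -0.68 (SE 0.23, adjusted p = 0.030) in AD against PH. With voom, AD against LG passed as well (1.2, adjusted p = 0.0084). LG replicate 1, the library with 158 RPKM of ring gland markers, had the highest *mthl10* and the lowest *mth* of the LG samples. Without it, *mthl10* passed the test in both comparisons with LG, at 1.50 in AD (adjusted p = 0.0010) and 2.18 in PH (adjusted p = 0.0017). Leaving out any other sample ended the PH against LG call of *mthl10*, with 1.61 without PH replicate 1, 1.74 without PH replicate 2, 2.05 without PH replicate 3, 1.59 without LG replicate 2 and 1.63 without LG replicate 3. It was also lost with no filter (adjusted p = 0.019), after quantile normalization (1.70, adjusted p = 0.012) and when scaled to all recovered reads (1.45, adjusted p = 0.022) or to those outside ribosomal genes (1.61, adjusted p = 0.013). The part of ring gland tissue in the *mthl10* level was not tested.

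*mth*, *mthl10* and *mthl9* lie in a row on the same strand, with 462 bases between *mth* and *mthl10* and 491 between *mthl10* and *mthl9*. All 3 lie inside the span of *Ptpmeg*, a tyrosine phosphatase gene on the plus strand, and share no exon base with it. *Ptpmeg* had 11.6 ± 0.637 RPKM in AD, against 7.16 ± 0.791 in PH and 5.91 ± 1.38 in LG (SD, n = 3 each), so its order over the groups was not that of *mth* or *mthl10*, both of which had their highest mean in PH. Whether the counting used strand is not given in the sources used here.

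*mthl3* and *mthl4* were detected in larvae and hardly or not at all in AD. *mthl3* (FBgn0028956, chromosome 2R, 17448533 to 17452598, minus strand) had 0.132, 0 and 0 RPKM in AD, 1.38, 2.18 and 3.73 in PH, and 2.74, 1.05 and 1.19 in LG. AD stood below all larval samples, while PH and LG overlapped. These values rest on 1 read in AD, against 88 in PH and 76 in LG. The read ratio, taken as larval over adult, was 52.4 (95% counting interval 9.16 to 2092) for PH and 39.4 (6.87 to 1577) for LG. *mthl3* passed the filter against AD only through the larval samples, so its fitted values are given with no test. They were -1.66 (SE 0.29) in AD against PH and -1.30 (SE 0.30) in AD against LG on the log2 scale, and were set largely by the pseudocount: with 0.1 and 5 in place of 1 they were -4.15 and -0.55 against PH, and -3.61 and -0.39 against LG. In PH against LG the estimate was 0.36 (SE 0.36, 95% interval -0.46 to 1.19, adjusted p = 0.48).

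*mthl4* (FBgn0034219, chromosome 2R, 17445185 to 17447483, minus strand) was at 0 reads in the 3 AD libraries, which allows up to 0.515 RPKM in the shallowest. It had 0.734, 0.941 and 2.29 RPKM in PH, and 0.521, 0.684 and 1.03 in LG, with 36 and 28 reads. Against the limit of 3 reads per AD library its mean was at least 2.57-fold higher in PH and at least 1.45-fold higher in LG. It did not pass the filter on low values (more than 1 RPKM in 3 or more of the 6 libraries compared) and was not tested. The 2 genes lie side by side, 1049 bases apart. The next gene beyond *mthl3*, *CG10764*, lies 800 bases away on the plus strand and had 0.638 ± 0.313 RPKM in AD, against 57.7 ± 9.46 in PH and 35.4 ± 2.50 in LG (SD, n = 3 each). The gene on the other side, *EDTP*, a phosphoinositide phosphatase gene 246 bases from *mthl4*, had the other order, with 21.5 ± 1.17, 5.41 ± 0.518 and 4.67 ± 0.990 RPKM.

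*mthl1* and *mthl5* were low in all groups, and no comparison called them. *mthl1* (FBgn0030766, chromosome X, 16640968 to 16650309, plus strand) had 2.35, 2.28 and 2.79 RPKM in AD, 2.63, 1.39 and 0.460 in PH, and 1.95, 1.43 and 1.42 in LG. The AD samples were above the LG samples, and PH overlapped both. The lowest value came from PH replicate 3, the library with the highest ribosomal share, and rests on 9 reads. Its 3 log2 fold changes were 0.57 (95% interval -0.20 to 1.34) in AD against PH, 0.42 (-0.11 to 0.95) in AD against LG and -0.15 (-0.98 to 0.68) in PH against LG. *mthl5* (FBgn0037960, chromosome 3R, 11883938 to 11887168, minus strand, inside *CG31368* on the other strand with no shared exon) had 1.53, 2.2 and 3.56 RPKM in AD, 1.85, 1.30 and 1.46 in PH, and 1.63, 1.35 and 2.89 in LG. Its groups all overlapped. The log2 fold changes were 0.40 (95% interval -0.23 to 1.02) in AD against PH, 0.21 (-0.54 to 0.95) in AD against LG and -0.19 (-0.84 to 0.46) in PH against LG.

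*mthl9* and *mthl8* were at or near the limit of detection and were not tested. *mthl9* (FBgn0035131, chromosome 3L, 329822 to 332309, minus strand) had 0.310, 0.620 and 1.28 RPKM in AD, 0.147, 0.596 and 0 in PH, and 1.34, 0 and 0.260 in LG, from 15, 9 and 22 reads. All groups overlapped. *mthl8* (FBgn0052475, chromosome 3L, 22428 to 26308, plus strand) had 0 reads in all 9 libraries. This allows up to 0.291 RPKM in the shallowest AD library, 0.228 in PH and 0.290 in LG.

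In each group the genes could be ordered by level only in part. In AD *mthl2* stood above all others, then *mth* and *mthl10* with overlapping samples, then *mthl1* and *mthl5* with overlapping samples, then *mthl9*, with *mthl3*, *mthl4*, *mthl6* and *mthl8* at 1 read or none. In PH *mthl2* stood above all others, followed by *mthl10* and *mth* with overlapping samples. The samples of *mthl3*, *mthl6*, *mthl5*, *mthl1* and *mthl4*, with means of 2.43, 2.32, 1.54, 1.49 and 1.32 RPKM, overlapped in every pair but *mthl6* and *mthl5*, so these 5 genes had no clear order. *mthl9* overlapped *mthl1* in turn, and *mthl8* was at 0. In LG the order was *mthl2*, *mthl6*, then *mthl10* and *mth* with overlapping samples, then *mthl5*, *mthl3* and *mthl1* with overlapping samples, then *mthl4* and *mthl9*, whose samples overlapped (those of *mthl9* also reached *mthl3*), and *mthl8* at 0.

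Of the 10 genes, 7 passed the filter in each comparison, all but *mthl4*, *mthl8* and *mthl9*. The counts that follow include *mthl6* and *mthl3*, described above with no test, and are read no further. In AD against PH, 37.0% of 7692 genes were called, and of the 7 genes 0 were higher (23.0% of all) and 2 were lower (13.9% of all). At an unadjusted p below 0.05 limma gave 1 higher and 3 lower, and limma voom on the recovered reads called 0 higher and 2 lower. In AD against LG, 30.4% of 7748 genes were called, and of the 7 genes 1 was higher (20.0% of all) and 2 were lower (10.4% of all). In PH against LG, 14.2% of 7088 genes were called, and of the 7 genes 3 were higher (7.63% of all) and 1 was lower (6.57% of all). The median log2 fold change of the 7 genes was -0.24, 0.42 and 0.36 in AD against PH, AD against LG and PH against LG, beside 0.05, 0.07 and 0.01 over all genes tested. Each group enters 2 of the 3 comparisons, so they are not independent of each other.

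**Figure D3:**
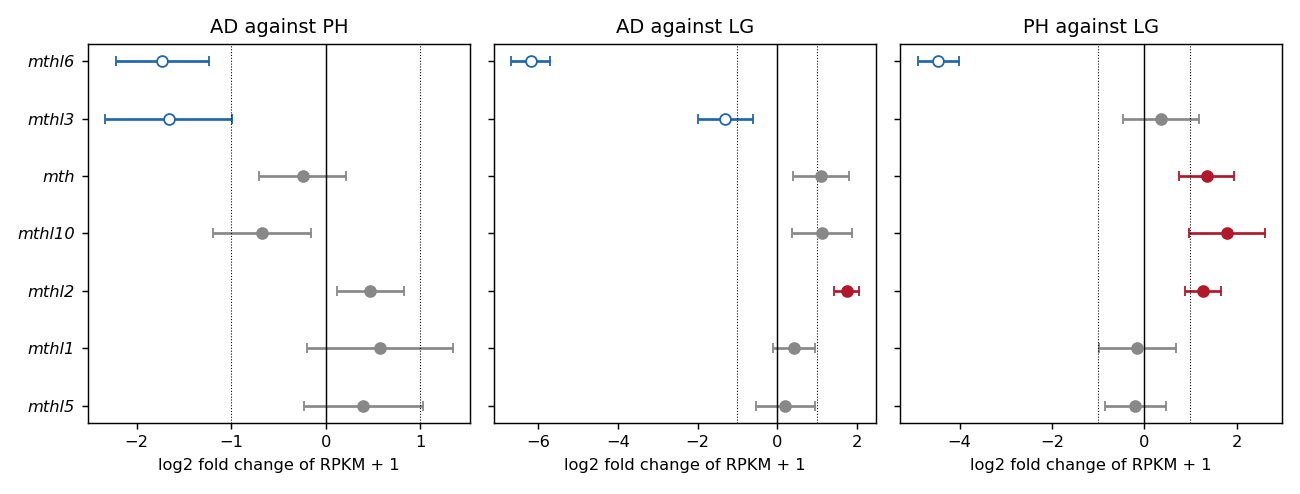
Log2 fold changes of RPKM + 1 with 95% intervals for the 7 genes that passed the filter, in AD against PH, AD against LG and PH against LG, on a separate horizontal scale for each. Positive values are higher in the group named first, red marks genes past both thresholds, open blue marks values given as a description with no test (*mthl6*, and *mthl3* in the comparisons with AD) and dotted lines mark -1 and 1. *mthl6* was at -4.47 in PH against LG, and *mth*, *mthl10* and *mthl2* were at 1.35, 1.80 and 1.27 there.

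The table also held 6 other methuselah-like genes. *mthl7* had a pattern close to that of *mthl6*, with 0 reads in the AD and PH libraries and 19.2, 14.1 and 14.5 RPKM in LG, from 425 reads. It passed the filter only through LG, so no test of it is given. The other 5 were low. *mthl12* and *mthl13* had 4.11, 0 and 2.04 RPKM and 3.93, 0.748 and 3.18 RPKM in LG, *mthl11* had 2.64, 0.812 and 0.556 RPKM in AD, and *mthl14* and *mthl15* had group means of 0.0918 to 0.414 RPKM. None of these 5 passed the filter. Among the LG samples *mthl12* and *mthl13* were, like *mthl10*, highest in replicate 1.

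**Figure D4:**
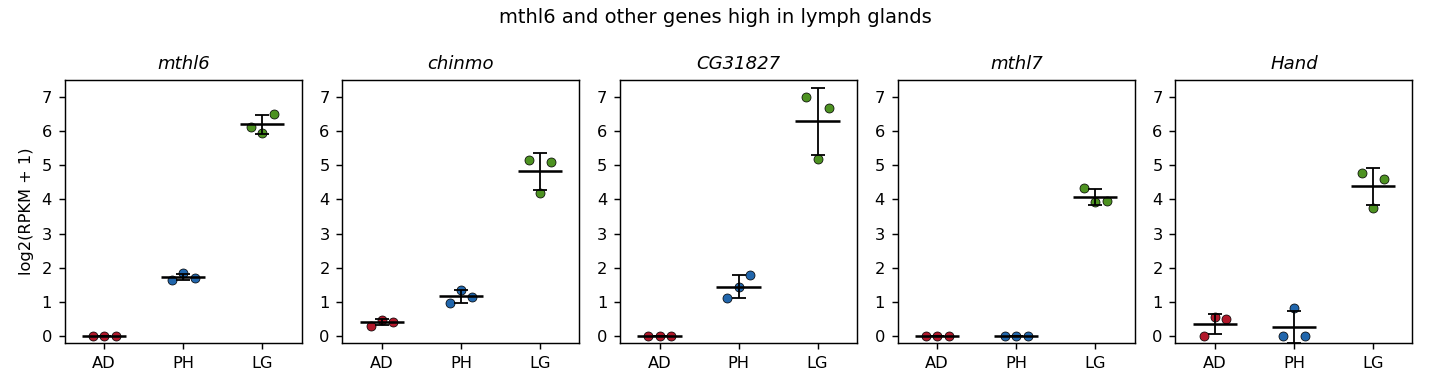
Log2(RPKM + 1) of *mthl6*, the 2 genes closest to it across the 9 samples (*chinmo* and *CG31827*), *mthl7* and the heart marker *Hand*, with 1 point per sample of AD, PH and LG, a bar at the mean and an error bar of 1 SD (n = 3). All 5 genes were higher in each LG sample than in any AD or PH sample. The genes beside *mthl6* were chosen as close to it or high in LG, so this order is a description only.

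For each tested gene the 2 genes closest in pattern were found by Pearson r of log2(RPKM + 1) over the 9 samples, among the 8065 genes that exceeded 1 RPKM in 3 or more of them. With 9 samples in 3 groups these values mainly reflect the order of the groups. *mthl6* was closest to *chinmo*, a transcription factor gene of developmental timing (r = 0.99), and to *CG31827* (r = 0.99). *chinmo* had 0.322 ± 0.0794 RPKM in AD, against 1.25 ± 0.302 in PH and 28.5 ± 9.87 in LG (SD, n = 3 each). *mthl2* was closest to the gene listed as *c11,1* (r = 0.98) and to *CR10102* (r = 0.98). *mth* was closest to *CG30392* (r = 0.98) and *GlcAT-I*, a glucuronyltransferase gene (r = 0.97). *mthl10* was closest to *CR45018* (r = 0.94) and an unnamed gene, FBgn0041607 (r = 0.94), and *mthl1* to *bif* (r = 0.96) and the Rab GTPase gene *RabX4* (r = 0.90). *mthl3* was closest to *His2B:CG33908*, 1 of many near-identical histone copies (r = 0.98), and *CG7137* (r = 0.98), and *mthl5* to *tRNA:Thr-AGT-1-1* (r = 0.94) and *snoRNA:Psi28S-1192d* (r = 0.88).

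Ligand genes were examined beside their receptors. Of the 6 listed ligand genes 4 were found. All 4 were called higher in AD against PH, where 23.0% of all genes rose, with a median log2 fold change of 2.29. In AD against LG, where 20.0% of all genes rose, *sun* and *Gbp3* were called higher. *Gbp1* and *Gbp2* passed the filter there only through AD, so no call of theirs against LG is given. *sun*, which encodes Stunted and also a subunit of ATP synthase, had 124, 137 and 89.3 RPKM in AD, 18.5, 20.2 and 21.9 in PH, and 42.8, 18.3 and 23.6 in LG. Its log2 fold change was 2.45 (SE 0.17, adjusted p = 6.1e-06) in AD against PH and 2.08 (SE 0.31, adjusted p = 0.0011) in AD against LG. *mth* itself did not pass the main limma test in either comparison. In AD against LG it passed with limma voom (1.21, adjusted p = 0.0080) and in the limma fit of all 9 samples (1.11, adjusted p = 0.0055).

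Among the growth-blocking peptide genes, *Gbp3* had 57.7, 46.9 and 49.6 RPKM in AD, 9.49, 12.2 and 11.6 in PH, and 2.43, 3.32 and 0.990 in LG. It was the only ligand gene to pass in PH against LG, at 1.96 (SE 0.31, adjusted p = 0.0026), of 3 tested. Over all genes 7.63% rose there, and *Gbp2*, 1 of the 3, passed that filter only through PH. *Gbp1* had 11.7, 24.8 and 20.0 RPKM in AD, 1.04, 3.21 and 0 in PH, and 0, 0 and 0.489 in LG. *Gbp2* had 19.8, 14.7 and 12.6 RPKM in AD, 1.79, 3.35 and 3.76 in PH, and 0.441, 0.869 and 0 in LG. *Gbp1* and *Gbp2* passed the filter in AD against LG only through AD. AD samples were above all larval samples for each ligand gene, while *mthl10* had its highest mean in PH. The share of all genes with AD above all larval samples was not counted. Over all genes 23.0% were called higher in AD against PH and 20.0% in AD against LG. The adult fat body markers other than *Npc2d* moved with these ligand genes, with a sum over all of them of 7959 to 12376 RPKM in AD. Their part in the ligand levels was not tested.

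**Figure D5:**
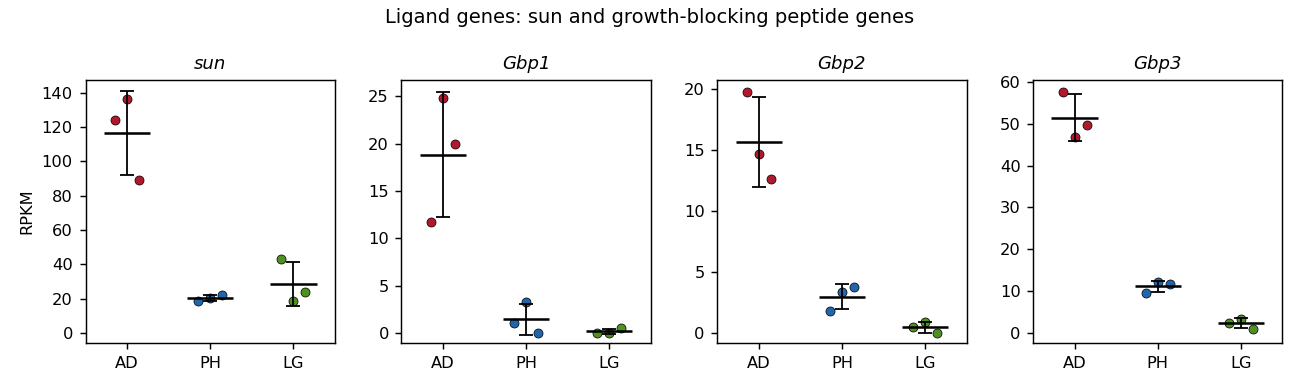
RPKM of *sun*, the gene for the Mth ligand Stunted, and of the growth-blocking peptide genes *Gbp1*, *Gbp2* and *Gbp3* in AD, PH and LG, with 1 point per sample, a bar at the mean, an error bar of 1 SD (n = 3) and a separate vertical scale in each panel. The AD samples lie above all larval samples, at 89.3 to 137 RPKM for *sun* and 46.9 to 57.7 RPKM for *Gbp3*.

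Of 16 genes for G proteins, phospholipase C, calcium handling and receptor shut-off, 3 were called higher in AD against PH, 1 lower and 12 neither way. Over all genes 23.0% were higher and 13.9% lower. The 3 include *RyR*, which passed the filter only through AD, so their count is read no further. *norpA*, a phospholipase C gene, had 14.0 ± 1.66 RPKM in AD and 4.08 ± 0.691 in PH, a log2 fold change of 1.57 (SE 0.19, adjusted p = 0.00015). *Itp-r83A*, the gene for the inositol trisphosphate receptor, rose by 1.10 (SE 0.19, adjusted p = 0.0011), while *RyR*, the ryanodine receptor gene, had 1.59, 1.07 and 1.68 RPKM in AD against 0.00959, 0.0332 and 0 in PH and passed the filter only through AD. *olf186-F*, which encodes the calcium channel Orai, had 6.38 ± 0.691 RPKM in AD and 17.1 ± 1.85 in PH and fell by 1.30 (SE 0.16, adjusted p = 0.00020). In AD against LG 2 rose, *norpA* (1.09, SE 0.20, adjusted p = 0.0032) and the calcium sensor gene *Stim* (1.08, SE 0.14, adjusted p = 0.00059), 0 fell by limma or by voom, also at an unadjusted p below 0.05, and 14 were not called, beside 20.0% higher and 10.4% lower over all genes. In PH against LG only *olf186-F* rose, by 1.93 (SE 0.26, adjusted p = 0.0015), of 15 tested, and 0 fell by limma, against 3 at an unadjusted p below 0.05 and 1 by voom, beside 7.63% higher and 6.57% lower over all genes. The G protein genes *Galphaq*, *Galphao*, *Galphai*, *Galphas*, *Gbeta13F* and *Ggamma1* were not called by limma in any comparison (voom called *Ggamma1* in PH against LG), with *Gbeta13F* at 114 ± 8.52, 80.6 ± 25.9 and 127 ± 19.2 RPKM and *Galphaq* at 10.4 ± 1.60, 6.89 ± 0.866 and 5.60 ± 0.899 RPKM in AD, PH and LG. Muscle markers, summing to 433 to 477 RPKM in AD and 24.9 to 47.1 in PH, moved with *RyR* between these groups, with *Mlc2* the largest part in AD (286 ± 23.6). The exception was *Act57B*, at 31.2 ± 12.1 RPKM in AD and 19.3 ± 8.07 in PH, which was not called. The part of muscle in the *RyR* level was not tested.

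Most of the 10 listed receptors of the secretin and adhesion classes were low in blood cells, with 3, 4 and 2 passing the filter in AD against PH, AD against LG and PH against LG. *Cirl*, the latrophilin gene, had 20.6, 20.8 and 19.7 RPKM in AD, 8.48, 9.20 and 5.75 in PH, and 4.95, 10.5 and 5.77 in LG. It rose in AD against PH (1.30, SE 0.19, adjusted p = 0.00042) and against LG (1.46, SE 0.26, adjusted p = 0.0026). *Pdfr*, the receptor gene for the neuropeptide PDF, had 3.19, 5.31 and 2.98 RPKM in AD, 0 in all PH samples, and 0, 0.495 and 0.0474 in LG, and passed the filter only through AD. Summed neuron markers were 5.12 to 6.48 RPKM in AD, against 1.08 to 1.90 in PH and 0.214 to 2.87 in LG. *elav* supplied most of the AD sum, with a mean of 5.68 RPKM. *Syt1* went the other way, with means of 0.0117 in AD and 0.629 in PH, and *nSyb* and *brp* had group means of at most 0.439. The part of neurons in the *Pdfr* level was not tested. *CG15744* fell in AD against PH, by 1.13 (SE 0.20, adjusted p = 0.0014). In PH against LG 0 of 2 were called, by limma or voom, also at an unadjusted p below 0.05. Over all genes 14.2% were called there by limma.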

How the data were processed

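Members and gene lists were chosen with earlier results of these data known. Per the labels' processing notes and the study's methods, the authors trimmed reads (Trimmomatic 0.32), aligned them (HISAT2 2.1.0, dm6), counted them (HTSeq 0.5.4p5) and calculated RPKM (Cufflinks 2.2.1). The notes also name TopHat and the build BDGP5, and give the RNA kit and sequencer differently from the methods. The values deposited are RPKM of 17490 genes with decimal commas. All 9 sample columns were used and 0 left out.

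Exon lengths came from the BDGP6.54 annotation, which matched 17216 genes by identifier and 85 by symbol. RPKM times exon length gave whole reads within 0.02 for 97.8 to 98.0% of values, with 1 library total per sample (3019882 to 9033159). The ratio of these totals to size factors computed by the median of ratios had a coefficient of variation of 0.102%, so RPKM here is already scaled between samples in the way of size factors. RPKM compares levels between genes per exon length, and low values rest on few reads, as given beside them.

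Two-sided tests between groups used R 4.3.3 and limma 3.58.1 (lmFit, then eBayes with its trend option) on log2(RPKM + 1). Genes entered when 3 or more of the 6 libraries exceeded 1 RPKM, with Benjamini-Hochberg adjustment over all genes tested. A fold change is therefore on the log2(RPKM + 1) scale, which understates that of low genes. Calls needed an adjusted p under 0.01 and a log2 fold change past 1 in either direction, the study's thresholds, with limma in place of the study's count test because the deposited unit is RPKM. limma voom on the recovered reads was an alternative, as were other pseudocounts, filters, scalings, a shared fit, a replicate block and leaving out each sample. The fit was tested on simulated data. Read ratios have exact 95% intervals for counting error only. The 10 genes, the listed families, genes next to or overlapping a member and the 2 genes closest by Pearson r were named. Of the ligand list, Gbp4 and Gbp5 were not analysed here. Python 3.11.15, pandas 2.3.3, numpy 2.4.6, scipy 1.17.1 and matplotlib 3.10.9 were used.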

Additional observations from a re-analysis of the deposited data

How the results depend on the processing

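Most of the values compared kept their direction and their side of the threshold. Apart from leaving out samples, 194 alternatives did so, 14 lost the call, 3 gained one and 3 changed sign. With 1 sample left out, 98 did so, 12 lost the call, 1 gained one and 3 changed sign. The tally includes genes that were never called, and also *mthl3* and *mthl6*, described above with no test. Every sign change concerned *mthl5* or *mthl1*, which were never called: *mthl5* was -0.0073 (AD against PH) and -0.10 (AD against LG) after quantile normalization, -0.031 (AD against LG) when scaled to reads outside ribosomal genes, and with 1 sample left out -0.022 to 0.42 (AD against LG, lowest without AD replicate 3) and -0.34 to 0.024 (PH against LG, highest without LG replicate 3), and *mthl1* was -0.47 to 0.19 (PH against LG, highest without PH replicate 3). The count of genes lower in AD against PH was 0 with a pseudocount of 5 or a filter at RPKM 5, and 0 to 2 when 1 sample was left out, since with 2 PH samples *mthl3* and *mthl6* failed the filter. Over the genes tested with all samples, an alternative chosen after seeing the data, it was 2 in all 6 fits. The counts lower in AD, against PH and against LG, rest on *mthl3* and *mthl6*. These genes passed the filter only through the larval samples, so the counts are read no further. The count lower in AD against LG was 1 with a pseudocount of 5, with no filter, with a filter at RPKM 5 and under the replicate block, and 0 to 1 without 1 sample (1 over the genes tested with all samples). The count higher in AD against LG was 2 in the fit of all 9 samples, 3 with voom, and 1 to 2 without 1 sample. The count higher in PH against LG was 1 with no filter or after quantile normalization, 0 when scaled to total recovered reads, and 1 to 3 without 1 sample. The *mthl6* value in PH against LG was -4.91 with a pseudocount of 0.1 and -3.40 with 5. At RPKM above 2, each of the 3 groups had 4 of the 10 genes expressed. The cause of these changes was not tested, beyond the filter just named.

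Other scalings shifted the median log2 fold change of all genes, by -0.26 (quantile), 0.09 (total reads) and -0.12 (reads outside ribosomal genes) in AD against PH, -0.26, -0.22 and -0.29 in AD against LG, and -0.01, -0.32 and -0.17 in PH against LG. The share of calls that were higher was 62.3% in AD against PH as reported and 49.7% after quantile normalization. It was 65.9% in AD against LG as reported, and 50.7%, 52.4% and 47.8% under the 3 scalings. In PH against LG it was 53.7% as reported, and 30.4% and 38.2% under both read scalings.

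Replicate numbers did not pair the samples: same-numbered samples had correlations of -0.11 to 0.05 in their deviations from the group means. With the replicate number as a block, *mth* in PH against LG (1.35, adjusted p = 0.011) missed the threshold, leaving 2 genes higher there. The count lower in AD against LG, which rests on *mthl3* and *mthl6*, was 1 and is read no further. No other call changed. Depth limits *mthl3*, *mthl4*, *mthl5*, *mthl8* and *mthl9*, whose groups held 88 reads or fewer.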
